A study of Homo sapiens with 18 samples.

Results

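Gene deserts are long stretches of the genome with no protein-coding gene, and 47323 of the 334857 accessible sites (14.1%) that were counted by ATAC-seq in the colon fibroblast line Ccd18-Co lay in them. A site was taken as a gene desert peak when it was on an autosome, was shorter than 1000 bp, had its centre outside every protein-coding gene body and lay more than 100 kb from every protein-coding transcript start (GENCODE release 44, build hg38). ATAC-seq counts DNA fragments released by the Tn5 transposase, which cuts where DNA is not wrapped around histones. The 18 libraries fell into 3 groups of 6. Unstimulated cells had received no cytokine. The DMSO group had received 3 pulses of TNF, OSM and IL-17A (10 ng/ml each) with IL-1β (0.1 ng/ml), each of 72 h followed by 96 h of recovery, then 1 week of rest and 5 days of the solvent DMSO. The belinostat group had received the same pulses and rest and then 5 days of 250 nM belinostat in place of the solvent alone. These concentrations are those of the labels. The published description of the study gives a higher one for belinostat. For IL-1β its methods give a lower one, while the figure legend for this treatment gives that of the labels. The files do not settle which were used. The DMSO and belinostat cells were collected 2 weeks after this treatment, and the labels do not say whether unstimulated cells were also given the solvent. All libraries came from 1 cell line kept in culture. The labels number the replicates but do not say whether they were separate cultures, so the p-values below measure the spread between these samples, which may be technical.

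Sites far from genes are mostly candidate enhancers, short elements where transcription factors bind and which can act on a promoter over long distances by looping. Several deserts flank genes that control development, and many are crossed by long non-coding RNAs. Belinostat inhibits histone deacetylases, the enzymes that remove acetyl groups from histones, and histone acetylation loosens chromatin. AP-1 (FOS and JUN proteins) and TEAD proteins, which act with YAP and TAZ, are major enhancer-binding factors of fibroblasts, and TWIST1 is a mesenchymal factor that binds an E-box. The nearest coding gene is given below as a landmark only, since the gene that a distal site acts on was not measured.

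The central 200 bases of 2 of the first 3 sites of each set, by size of change or by strength, are shown because the words searched in them recur in the counts below. The FAM110B, CA8, SULF1, SARAF and TNS1 sites are also among the first 3 and are not shown. Letters are those of the hg38 plus strand, and capitals mark a match on either strand to a short word. The words searched were TGANTCA for the AP-1 factors, GGAATG for the TEAD factors, CAGATG for the TWIST E-box, TGNGGTT for the RUNX factors, TTGCNNCAA for the C/EBP factors, GGANTTTCC for NF-kB proteins, CCGGAAG for the ETS factors, TGGGTGGTC for the GLI factors, TGTTTAC for the FOX factors, AGATAAG for factors of the GATA family, and a longer CTCF word. Matches to different words may overlap. A match is a string of letters and not evidence of binding. The first 2 sites opened in DMSO against unstimulated libraries and hold AP-1 words, the ACTR3C site also 2 E-boxes. Of the 5 sites named for this direction below, 3 hold the AP-1 word and the other 2 the RUNX word alone. These sites do not stand for the rest: the AP-1 word was in 7.77% of the gene desert peaks that opened in this contrast, against 15.2% of all gene desert peaks.
DIAPH3 site, chr13:59038947-59039146: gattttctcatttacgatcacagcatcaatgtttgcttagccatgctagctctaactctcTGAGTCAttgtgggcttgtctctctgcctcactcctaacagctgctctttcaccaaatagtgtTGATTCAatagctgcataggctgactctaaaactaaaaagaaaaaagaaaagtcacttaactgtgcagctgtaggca
ACTR3C site, chr7:150101318-150101517: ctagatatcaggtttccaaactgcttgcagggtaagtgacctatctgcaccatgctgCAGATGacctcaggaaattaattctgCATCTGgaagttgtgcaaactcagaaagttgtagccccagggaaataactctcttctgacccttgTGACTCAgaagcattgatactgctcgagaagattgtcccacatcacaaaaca
The next 2 closed in the same contrast and hold a TEAD word, whereas the other 3 of the 5 sites named for this direction hold none of the words.
ARHGAP42 site, chr11:100459897-100460096: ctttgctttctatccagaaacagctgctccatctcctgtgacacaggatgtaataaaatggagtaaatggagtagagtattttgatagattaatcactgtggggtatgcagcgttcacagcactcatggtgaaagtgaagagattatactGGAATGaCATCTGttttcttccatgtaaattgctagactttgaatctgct
VLDLR site, chr9:2424757-2424956: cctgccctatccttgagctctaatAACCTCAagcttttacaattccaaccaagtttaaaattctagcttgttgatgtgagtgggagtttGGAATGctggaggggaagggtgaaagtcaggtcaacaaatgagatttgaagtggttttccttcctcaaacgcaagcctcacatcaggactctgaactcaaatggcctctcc
Of the sites that opened in belinostat against DMSO libraries, the first shown holds a TEAD word and the second none of the words. Of the 5 named below, 2 hold the TEAD word and 2 hold no word.
KIF18A site, chr11:27926512-27926711: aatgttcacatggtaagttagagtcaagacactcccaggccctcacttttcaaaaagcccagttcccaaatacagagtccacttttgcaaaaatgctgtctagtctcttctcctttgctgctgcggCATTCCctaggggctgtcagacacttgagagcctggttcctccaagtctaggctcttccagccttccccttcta
FZD8 site, chr10:36336445-36336644: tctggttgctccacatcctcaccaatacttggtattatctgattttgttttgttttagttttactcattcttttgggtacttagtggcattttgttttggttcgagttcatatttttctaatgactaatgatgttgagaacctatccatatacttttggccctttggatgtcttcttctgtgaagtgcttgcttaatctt
Of the sites that closed in that contrast, the SEC23A site holds none of the words and the CXCL12 site an E-box. The SARAF and KLHL29 sites, named below, also hold an E-box.
SEC23A site, chr14:38881022-38881221: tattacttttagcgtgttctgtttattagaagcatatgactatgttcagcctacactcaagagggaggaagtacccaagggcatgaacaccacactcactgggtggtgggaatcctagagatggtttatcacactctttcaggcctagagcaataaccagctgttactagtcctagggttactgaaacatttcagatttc
CXCL12 site, chr10:44125936-44126135: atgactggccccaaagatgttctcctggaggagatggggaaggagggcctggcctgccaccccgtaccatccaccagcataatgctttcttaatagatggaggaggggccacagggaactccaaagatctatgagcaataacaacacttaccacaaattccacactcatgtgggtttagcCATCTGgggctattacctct
The 2 strongest sites of unstimulated cells held 64.0% and 63.0% G or C over the window, against a median of 48.5% over the gene desert peaks.
NFE2L3 site, chr7:25862432-25862631: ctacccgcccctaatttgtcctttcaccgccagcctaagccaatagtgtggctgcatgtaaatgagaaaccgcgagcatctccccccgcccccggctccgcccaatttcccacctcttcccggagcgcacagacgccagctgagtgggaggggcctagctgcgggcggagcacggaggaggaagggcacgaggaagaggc
MTRR site, chr5:8457526-8457725: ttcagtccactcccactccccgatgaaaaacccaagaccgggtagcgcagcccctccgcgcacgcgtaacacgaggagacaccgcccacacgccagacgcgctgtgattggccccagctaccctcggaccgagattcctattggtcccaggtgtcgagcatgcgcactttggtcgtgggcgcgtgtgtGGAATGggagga

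The gene desert peaks lay 100 kb to 5510 kb from the nearest coding start (median 213 kb). Deserts as defined here covered 839.4 Mb, 30.5% of the autosomes, and held 56.4 peaks per Mb, against 137 per Mb for other narrow autosomal peaks. They ranged from 31.5 peaks per Mb of desert on chromosome 4 to 112 per Mb on chromosome 22, the densest autosome. Most were weak. The median of the average log2 CPM (counts scaled by library size, a level) was -0.05 against 0.20 over all peaks, and the share of gene desert peaks fell from 23.5% of the weakest decile of all peaks to 6.04% of the strongest. Within the gene body of a long non-coding RNA lay 35.8% of them, against 17.1% of all peaks, and 8.02% lay within 3 kb of the start of one, close to the 8.11% of all peaks. The CTCF word was in 0.718% of their windows, against 1.13% of all peaks, and the ETS word, common at promoters, in 0.699% against 1.36%.

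The strong sites differed in composition. In the strongest 2 deciles, which start at an average log2 CPM of 1.64, there were 5331 gene desert peaks, and this set is called strong below. Their median GC content was 44%, against 51.5% in the 61641 other strong peaks. The AP-1 word was in 26.3% of them against 17.0%, the TEAD word in 20.8% against 15.7%, the E-box in 21.1% against 15.7% and the FOX word in 8.74% against 5.42%. The other strong peaks include those at coding starts and wide peaks, and strong distal peaks outside deserts were not set apart. Over all strengths the AP-1 word was in 15.2% of gene desert peaks and 11.5% of peaks within 3 kb of a start. In the other classes it was in 14.7% to 15.6%. The TEAD word was in 16.2%, 13.5% and 16.1% to 16.5% of the same sets, so these shares were not particular to deserts. All these shares describe the sites and were not tested. Since strength here is the average over all libraries, no contrast between the groups entered the choice.

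The 5 strongest gene desert peaks, by mean CPM per kb of site in unstimulated libraries, had levels of 89.5 to 104 CPM per kb. The first, on chromosome 7 from 25862135 to 25862929 and 290 kb from NFE2L3, had 104 ± 11.1 CPM per kb (SD, n = 6). The second, in an exon of a long non-coding gene on chromosome 5 and 62 bp from that gene's start, had 96.5 ± 10.5 CPM per kb (SD, n = 6). Another, 229 bp from a start of the non-coding gene DIRC3 on chromosome 2, had 91.5 ± 8.37 CPM per kb (SD, n = 6). The other 2, nearest to SPTLC3 and TSPYL5, were over 50 kb from any long non-coding start. Not every strong site thus sat at an annotated start of a coding or long non-coding gene, and starts of other kinds were not looked at for these sites. All 5 fell in DMSO against unstimulated libraries by TMM scaling, with log2 fold changes from -0.34 to -0.27, and all 5 were higher, with values from 0.08 to 0.15, when a loess curve removed the trend with abundance, so their direction depends on the scaling. The calls were marginal (adjusted p 0.012 to 0.049, edgeR). None of the 5 passed without unstimulated 6, and the NFE2L3, MTRR, TNS1 and SPTLC3 sites did not pass without unstimulated 1. The TNS1 site was lost without any of 12 single libraries (adjusted p 0.053 to 0.14, edgeR).

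Depth in peaks differed between the groups and has to be set beside the changes. Background was not measured, since that needs reads outside peaks. Counts in peaks per library ran from 7077321 to 11352032 in unstimulated, from 6488975 to 8066642 in DMSO and from 4661678 to 6370845 in belinostat libraries. The median count of a gene desert peak was between 2 and 7 per library, so single weak sites were poorly measured. Of the promoter markers, fibroblast genes were accessible in unstimulated cells, from 4.72 CPM summed over the peaks at LUM to 131 CPM at COL1A1. Among other cell types, KRT20 and SPI1 had no peak within 1 kb of a start, PTPRC had 1.83 CPM and CD3E 0.36 CPM, while KRT8 (23.3 CPM), CD14 (13.4 CPM), CDH1 (8.85 CPM), TEK (5.96 CPM) and EPCAM (5.42 CPM) exceeded LUM. Summed over the 10 fibroblast markers the level was 397 to 459 CPM in unstimulated, 286 to 371 CPM in DMSO and 253 to 399 CPM in belinostat libraries, and 9 of the 10 had a lower mean in DMSO than in unstimulated libraries. The epithelial sums were 37.2 to 46.9, 28.4 to 40.4 and 33.3 to 42.9 CPM, the immune sums 14.3 to 16.9, 11.0 to 17.9 and 14.7 to 18.7 CPM, and the endothelial sums 9.81 to 14.3, 12.5 to 15.6 and 11.7 to 18.7 CPM in the same order. The fibroblast sums of unstimulated and DMSO libraries did not overlap, and the part of these markers in the changes below was not tested. No 2 libraries of a group agreed within sampling noise over all peaks (lowest chi-square per degree of freedom 1.015, 45 pairs), so none was counted as a repeat of another. The library labelled unstimulated 6 stood apart, with 16.6% of gene desert peaks at a count of 0 against 1.74% to 6.34% in the other 5.

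The share of all counts that fell in gene desert peaks was higher after the cytokine pulses. It was 6.75% at the lowest, 7.07% at the median and 7.31% at the highest in unstimulated libraries. In DMSO libraries it was 7.24%, 7.79% and 7.89%, and in belinostat libraries 7.18%, 7.91% and 8.34%. The DMSO range overlapped the unstimulated one in its lowest library only. The mean rose by 0.65 percentage points from unstimulated to DMSO (exact permutation test over 6 and 6 libraries, two-sided p = 0.0043, adjusted p = 0.0078 over 9 tests). From DMSO to belinostat it differed by 0.20 percentage points (exact permutation test, two-sided p = 0.33). At the same time the counts spread from strong sites to weak ones: strong sites held 59.6% to 68.4% of the desert counts in unstimulated, 48.7% to 57.2% in DMSO and 41.5% to 56.9% in belinostat libraries. The first of these ranges did not overlap either of the others. The fall from unstimulated to DMSO was 10.3 percentage points (difference -10.25, exact permutation test, two-sided p = 0.0022, the smallest that 6 against 6 libraries can give, adjusted p = 0.0065).

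**Figure D1:**
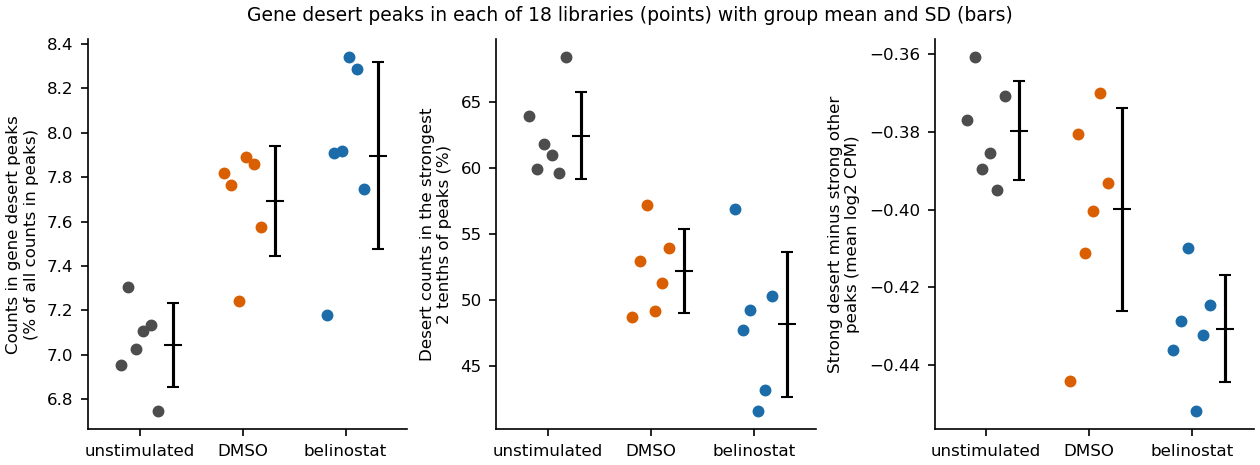
Each point is a library, in 3 groups of 6, with the group mean and SD as a bar. The left panel shows the percentage of all counts in peaks that fell in gene desert peaks, the middle panel the percentage of desert counts held by strong sites, and the right panel the mean log2 CPM of strong desert peaks minus that of other strong peaks. The middle panel shows all 6 unstimulated libraries, at 59.6% or more, above all DMSO libraries, at 57.2% or less.

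Within strong sites, deserts were compared with the other peaks of each library. The mean log2 CPM of strong gene desert peaks minus that of other strong peaks, a difference within each library, was -0.39 to -0.36 (median -0.38) in unstimulated, -0.44 to -0.37 (median -0.40) in DMSO and -0.45 to -0.41 (median -0.43) in belinostat libraries. A difference taken within a library does not change with the scaling of that library. Every belinostat library was below every unstimulated library, and the mean fell by 0.051 between these groups (exact permutation test, n = 6 and 6, two-sided p = 0.0022, adjusted p = 0.0065 over 9 tests). The 2 steps between them had overlapping ranges. The change was -0.020 from unstimulated to DMSO (exact permutation test, two-sided p = 0.11) and -0.031 from DMSO to belinostat (exact permutation test, two-sided p = 0.035, adjusted p = 0.052).

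In the cytokine contrast, DMSO against unstimulated libraries, 5814 gene desert peaks opened and 2925 closed at an adjusted p under 0.05 (edgeR quasi-likelihood test, Benjamini-Hochberg over all 334857 peaks). That is 12.3% opened and 6.18% closed, where the background over all peaks was 9.51% opened and 9.73% closed. By class, other narrow autosomal peaks over 3 kb from a coding start had 8.84% to 11.5% opened and 5.84% to 6.56% closed. Gene desert peaks had a median shift of 0.31 on the log2 scale and all peaks one of 0.13, a difference of 0.18 that a whole-library scaling cannot change. TMM over the weaker 50% of peaks took both medians below 0 (-0.12 and -0.30). With offsets that vary by peak the difference was 0.025 (loess) and 0.063 (loess and GC content). The direction followed abundance. In the weakest decile 15.2% of gene desert peaks opened and 0.242% closed, with a median log2 fold change of 0.81. In the strongest decile 0.593% opened and 60.9% closed, with a median of -0.38. A loess offset that removes the trend with abundance left 793 opened (1.68%) and 1133 closed (2.39%), with a desert median of 0.04. Over all peaks the same offset left 1.865% opened and 1.908% closed, so deserts then had the lower opened and the higher closed share. Of the calls by TMM, most were thus not made once the trend with abundance was removed. The count of opened sites also rested on single libraries: without unstimulated 6 it was 3324 (7.02%), without DMSO 4 it was 3550 (7.50%) and without unstimulated 1 it was 3804 (8.04%).

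Within deciles of average abundance, gene desert peaks were set beside peaks within 3 kb of a coding start. Levels inside a decile were not matched. The strongest decile runs from 2.81 to 7.42 log2 CPM, and gene desert peaks reach 6.165. By TMM, 28.6% of desert and 20.0% of start peaks of the second strongest decile closed in the cytokine contrast, while in the strongest decile the shares were 60.9% and 63.8%. With the loess offset, the closed shares were 5.77% and 1.97% in the second strongest decile and 8.502% and 2.006% in the strongest. Of intergenic peaks 3 to 100 kb from a start, 21.3% closed by TMM in the second strongest decile, between the other shares, and 55.4% in the strongest, below both. Peaks in gene bodies over 100 kb from starts were close to the deserts, with 27.4% and 58.2% closed by TMM and 6.35% and 8.36% with the loess offset. These shares were not tested against each other.

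**Figure D2:**
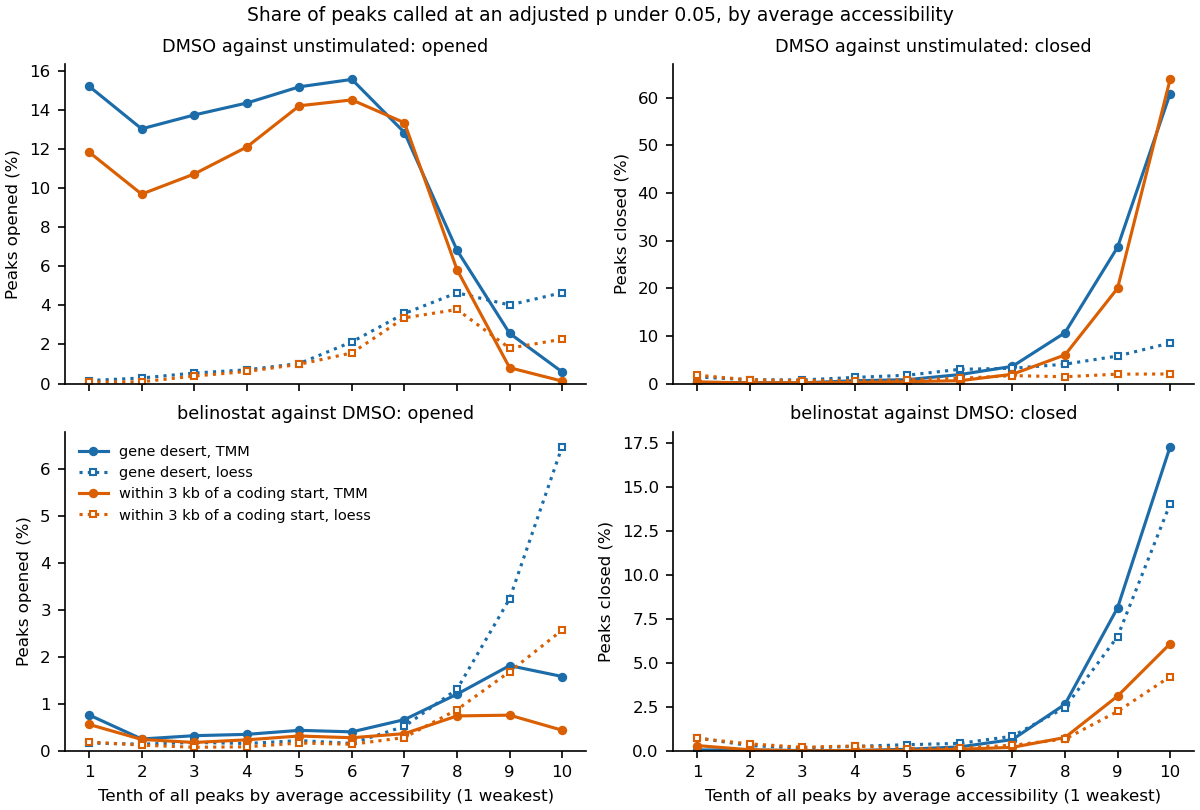
The horizontal axis gives deciles of all peaks by average accessibility (1 weakest), and the vertical axes give the percentage of peaks opened (left) or closed (right) at an adjusted p under 0.05, in DMSO against unstimulated (top) and belinostat against DMSO (bottom). Filled points are TMM scaling and open squares the loess offset. The blue curve of gene desert peaks closed by belinostat ends at 17.3%, the orange curve of peaks at coding starts at 6.09%.

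Among better measured sites (log2 CPM averaging 1 or more), only 66 gene desert peaks opened with DMSO and unstimulated libraries fully apart, 0.139% of gene desert peaks against a background of 0.172% of all peaks. Of the gene desert peaks, 957 closed by the same criteria (2.02%), against 3.51% of all peaks. Since gene desert peaks are mostly weak, the fairer denominator is the 8600 at or above that level. Of these 0.767% opened and 11.1% closed, against 0.600% and 12.3% of the 95928 peaks of that level in all. The sites named next are those with the largest changes among them, so that the absence of overlap is part of how they were chosen.

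The steepest rise was at a site on chromosome 8 from 58220820 to 58221341, 151 kb from FAM110B. It had 0.322, 0.687 and 0.981 CPM (lowest, median and highest) in unstimulated libraries, 2.19, 3.36 and 4.60 CPM in DMSO libraries and 2.08, 2.87 and 3.41 CPM in belinostat libraries. Its log2 fold change, with its SE, was 2.27 ± 0.27 (adjusted p = 5.3e-11), and belinostat libraries stayed within the DMSO range apart from the lowest. The DIAPH3 site, on chromosome 13 from 59038886 to 59039207 and 657 kb from this formin gene, had 0.595, 0.834 and 1.43 CPM in unstimulated and 2.19, 3.096 and 4.57 CPM in DMSO libraries, a log2 fold change (± SE) of 1.85 ± 0.25, adjusted p = 1.4e-08. In belinostat libraries it had 1.80, 2.37 and 2.96 CPM, all above the unstimulated range. The ACTR3C site, on chromosome 7 from 150101067 to 150101768, went from 0.644, 1.08 and 1.82 CPM to 2.89, 3.52 and 3.79 CPM (log2 fold change 1.60 ± 0.23 SE, adjusted p = 1.5e-07). A site 573 kb from ETS1, the gene of a transcription factor of lymphoid and stromal cells, lay on chromosome 11 from 127890673 to 127891338 and went from 1.27, 1.47 and 2.07 CPM to 3.36, 4.61 and 5.45 CPM. Its log2 fold change, with its SE, was 1.57 ± 0.20 (adjusted p = 3.6e-09). The fifth, 267 kb from C8orf90, had a log2 fold change (± SE) of 1.54 ± 0.26, adjusted p = 6.3e-06. All 5 stayed called with the loess offset, at 1.57 to 2.29. In belinostat against DMSO libraries none of them passed the test, with log2 fold changes from -0.65 to -0.05.

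The largest fall was at a site 463 kb from CA8, which had 2.23, 3.02 and 4.67 CPM in unstimulated libraries and 0.541, 0.773 and 1.27 CPM in DMSO libraries (log2 fold change -1.89 ± 0.26 SE, adjusted p = 1.8e-08). The ARHGAP42 site, on chromosome 11 from 100459812 to 100460181 and 227 kb from its gene, went from 2.71, 3.29 and 3.83 CPM to 0.669, 0.913 and 1.31 CPM. Its log2 fold change, with its SE, was -1.74 ± 0.25 (adjusted p = 1.3e-07). The VLDLR site lay in an intron of the non-coding gene VLDLR-AS1 on chromosome 9 from 2424494 to 2425219, 1100 bp from a start of that gene and 196 kb from the gene of the very low density lipoprotein receptor. It was far deeper, with 8.29, 10.9 and 11.6 CPM in unstimulated and 2.15, 3.52 and 4.27 CPM in DMSO libraries, a log2 fold change (± SE) of -1.61 ± 0.16, adjusted p = 2.8e-15. A site on chromosome 3 from 137263986 to 137264890, 284 kb from IL20RB (a subunit of receptors for cytokines of the IL-20 family), had 8.01, 9.23 and 11.5 CPM, then 2.51, 3.00 and 4.08 CPM in DMSO and 1.40, 2.39 and 3.51 CPM in belinostat libraries (cytokine contrast -1.57 ± 0.16 SE, adjusted p = 3.3e-14). The fifth, 336 kb from the heat shock factor gene HSF2, fell by 1.45 on the log2 scale (SE 0.25, adjusted p = 1.2e-05). In belinostat libraries these 5 stayed below the unstimulated level: against unstimulated libraries their log2 fold changes were -1.98 to -1.16, all with adjusted p of at most 7.4e-05 (edgeR). The same unstimulated libraries entered the choice of these sites, so these p-values are no separate support.

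**Figure D3:**
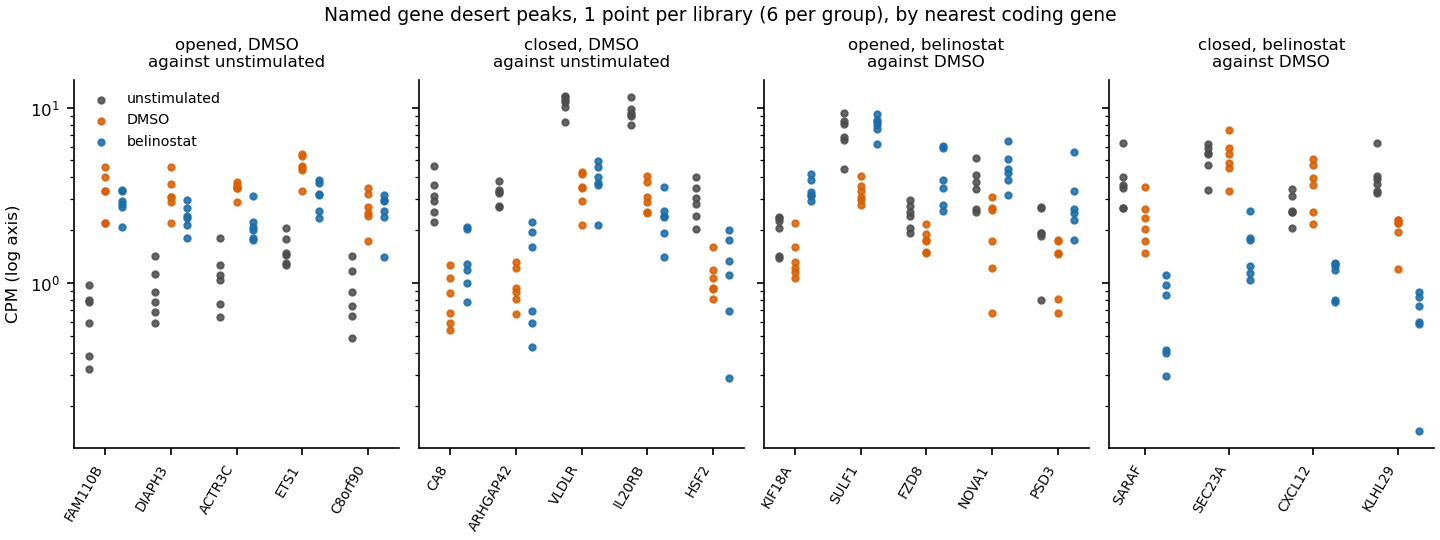
Each point is the CPM of a site in a library (log axis), with 6 unstimulated, 6 DMSO and 6 belinostat libraries per site, for the sites with the largest changes in each direction of both contrasts, labelled by nearest coding gene. The sites were required not to overlap between the compared groups. The SULF1 site is the case where DMSO libraries (2.80 to 4.06 CPM) lie below both unstimulated (4.46 to 9.34 CPM) and belinostat libraries (6.22 to 9.23 CPM).

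Belinostat against DMSO changed fewer sites. Of the gene desert peaks, 316 opened (0.668%) while 770 closed (1.63%), close to the background of 0.607% and 1.75% of all peaks. This contrast shares its DMSO libraries with the cytokine contrast. The counts moved little with the loess offset, at 367 opened and 762 closed (0.776% and 1.61%, all peaks 0.950% and 1.55%). Deserts differed from peaks at coding starts in strong sites. In the strongest decile 17.3% of gene desert peaks and 6.09% of peaks at coding starts closed, and in the next 8.13% and 3.11%. Opened peaks were 1.58% and 0.439% of the strongest decile. With the loess offset, the closed shares of the strongest decile were 14.0% and 4.22%. By TMM, the intergenic peaks 3 to 100 kb from a start were close to the deserts, with 16.4% closed and 1.38% opened. So were peaks in gene bodies over 100 kb from starts (18.4% and 1.67%) and at 3 to 100 kb (16.4% and 1.07%), and the difference was thus not particular to deserts. The count of opened desert peaks fell to 153 (0.323%) without DMSO 2, to 186 (0.393%) without belinostat 2 and to 201 (0.425%) without belinostat 3, and rose to 478 (1.01%) without belinostat 1.

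By the same criteria for belinostat and DMSO libraries, 23 gene desert peaks opened (0.0486%, background 0.0415%) and 315 closed (0.666%, background 0.715%). The KIF18A site, on chromosome 11 from 27926413 to 27926810 and 162 kb from this mitotic kinesin gene, rose from 1.07, 1.26 and 2.21 CPM in DMSO to 2.93, 3.24 and 4.21 CPM in belinostat libraries (log2 fold change 1.27 ± 0.23 SE, adjusted p = 4.9e-05). Unstimulated libraries had 1.40, 2.16 and 2.38 CPM there, below every belinostat library. The SULF1 site lay in an intron of the non-coding gene LINC01592 on chromosome 8 from 69097037 to 69098015, 369 kb from the gene of an extracellular sulfatase that trims heparan sulfate. It had 4.46, 7.41 and 9.34 CPM in unstimulated, 2.80, 3.21 and 4.06 CPM in DMSO and 6.22, 8.16 and 9.23 CPM in belinostat libraries. Its log2 fold change was -1.13 ± 0.17 in the cytokine contrast (SE, adjusted p = 2.1e-07) and 1.25 ± 0.17 in the belinostat contrast (SE, adjusted p = 1.0e-08). Belinostat libraries overlapped the unstimulated ones (log2 fold change 0.12 ± 0.15 SE, adjusted p = 0.55). The FZD8 site, 694 kb from the gene of a Wnt receptor on chromosome 10 from 36336187 to 36336903, had 1.48, 1.75 and 2.17 CPM in DMSO and 2.57, 3.66 and 6.02 CPM in belinostat libraries (1.18 ± 0.22 SE, adjusted p = 6.9e-05). The sites nearest to NOVA1 and PSD3 rose by 1.16 ± 0.21 and 1.15 ± 0.25 (SE, adjusted p = 6.6e-05 and 0.0016).

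Of the sites that closed, the SARAF site, 287 kb from the gene of a regulator of calcium entry, had 2.67, 3.57 and 6.28 CPM in unstimulated, 1.48, 2.2 and 3.52 CPM in DMSO and 0.296, 0.637 and 1.11 CPM in belinostat libraries, with a belinostat contrast of -1.78 ± 0.31 on the log2 scale (SE, adjusted p = 2.2e-05). The SEC23A site, on chromosome 14 from 38880788 to 38881456, had 3.38, 5.48 and 6.23 CPM, then 3.35, 5.15 and 7.45 CPM in DMSO and 1.04, 1.502 and 2.59 CPM in belinostat libraries. It did not pass the test in the cytokine contrast (0.02 ± 0.16 SE, adjusted p = 0.95) and fell by 1.76 on the log2 scale in the belinostat contrast (SE 0.22, adjusted p = 3.9e-10). The CXCL12 site, on chromosome 10 from 44125807 to 44126264, lay 259 kb from the gene of a chemokine made by stromal cells. It had 2.06, 2.56 and 3.43 CPM in unstimulated, 2.17, 3.81 and 5.08 CPM in DMSO and 0.781, 1.22 and 1.29 CPM in belinostat libraries, below both other groups (belinostat contrast -1.69 ± 0.25 SE, adjusted p = 1.6e-07). The KLHL29 site, 885 kb from its gene and 8040 bp from a start of the non-coding gene LINC01884 on chromosome 2, fell in both contrasts, by 0.99 and by 1.65 on the log2 scale (adjusted p = 0.00026 and 0.00016). Each site named here for belinostat stayed called with the loess offset.

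Belinostat libraries against unstimulated ones, the sum of both steps, had more calls than either: 9985 gene desert peaks opened (21.1%, background 16.8%) and 4337 closed (9.16%, background 13.7%). Their median shift was 0.42 on the log2 scale. With the loess offset 1364 opened and 2734 closed (2.88% and 5.78%, all peaks 3.57% and 4.83%). Leaving out belinostat 4 lowered the number opened to 6597 (13.9%).

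Word shares in strong gene desert peaks are given by direction of change, as descriptions without a test. Of the 92 strong sites that belinostat opened, 52.2% held the TEAD word, against 21.5% of the 2520 strong sites with an adjusted p of at least 0.5 and 17.0% of the 619 that closed. The AP-1 word was in 8.70%, 24.4% and 30.5% of the same sets, and the E-box in 20.7%, 19.4% and 30.7%. After the cytokine pulses the TEAD word was in 26.5% of the 2177 strong sites that closed, against 14.9% of the 1053 with an adjusted p of at least 0.5 and 21.6% of the 97 that opened. There the AP-1 word was in 21.8%, 30.8% and 15.5%. For comparison, over all peaks of the table the window held the TEAD word in 15.5%, AP-1 in 14.1% and the E-box in 18.7%. Strong peaks outside deserts had the same order of the TEAD word in the belinostat contrast. It was in 42.2% of those that opened, 15.5% of those with an adjusted p of at least 0.5 and 12.6% of those that closed. In the cytokine contrast their orders differed from those of deserts. There the TEAD word was in 17.2% of those that closed, 13.6% of those with an adjusted p of at least 0.5 and 12.4% of those that opened, and the AP-1 word in 12.4%, 22.9% and 14.0%.

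**Figure D4:**
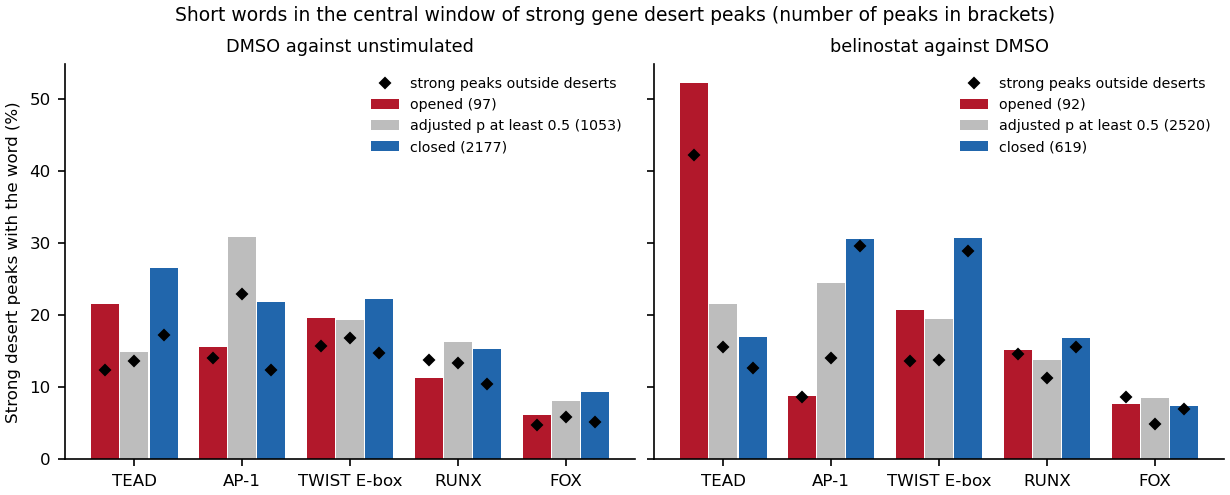
Bars give the percentage of strong gene desert peaks whose central window holds each word, for sites opened, sites with an adjusted p of at least 0.5 and sites closed, with the number of sites in brackets. Diamonds give the same shares in strong peaks outside deserts. The tallest bar is the TEAD word in sites that belinostat opened, at 52.2%.

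Read the other way, the 1110 strong gene desert peaks with a TEAD word had a median log2 fold change of -0.40 in the cytokine contrast, with 51.9% closed, and of -0.05 in the belinostat contrast, with 4.32% opened and 9.46% closed. Those without it had medians of -0.31 and -0.17, with 37.9% closed in the first contrast and 1.04% opened in the second. The 1403 with an AP-1 word had medians of -0.29 and -0.20, and the 1125 with an E-box -0.35 and -0.22, with 16.9% of the latter closed by belinostat. With the loess offset the TEAD medians were -0.11 and 0.06, and those of the E-box -0.08 and -0.11. The 66 strong sites with an NF-kB word had medians of -0.33 and -0.05, and 42.4% closed in the cytokine contrast against 40.8% of those without it. The words are not exclusive, and GC content, which differed between sites that opened (median 50%) and closed (43.5%) in the cytokine contrast, was not held constant.

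Over all gene desert peaks, the share opened in the cytokine contrast rose from 11.8% at 100 to 250 kb to 16.2% beyond 1 Mb, and the share closed fell from 6.42% to 3.90%. Over the same range the share of strong sites fell from 12.3% to 7.46%. Among strong sites, 40.3% closed at 100 to 250 kb, 42.1% at 250 to 500 kb, 42.1% at 500 kb to 1 Mb and 36.0% of the 111 sites beyond 1 Mb. Beyond 1 Mb 12 of the 111 opened (10.8%), against 0.805% to 2.02% at shorter distances. With belinostat treatment, the closed shares of strong sites were 12.1%, 11.0%, 11.4% and 6.31%. By non-coding annotation, 41.9% of the 627 strong sites within 3 kb of a long non-coding start closed in the cytokine contrast, 43.4% of the 1859 inside a long non-coding gene but further from its start, and 38.9% of the 2845 outside any long non-coding gene. On both sides of the 100 kb limit the values were alike, with 11.2% opened and 6.15% closed among 3593 intergenic peaks at 90 to 100 kb, and 11.5% and 7.29% among the 3334 gene desert peaks at 100 to 110 kb.

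Counts were also summed over whole deserts. The autosomes held 1707 uninterrupted desert stretches, 1572 of them with at least 1 member, and 1516 had enough counts to be tested beside 1682 gene neighbourhoods between them. With the cytokine pulses 541 desert stretches rose (35.7%) and 471 fell (31.1%), against a background of 22.2% and 53.8% over all stretches and neighbourhoods. With the loess offset 433 rose (28.56%) and 351 fell (23.15%), against 25.14% and 25.05% over all stretches and neighbourhoods. Desert stretches were summed over their narrow member peaks only, and neighbourhoods over all their peaks. Peaks called in opposite directions in the cytokine contrast lay in 532 stretches, and no like count of neighbourhoods is given. After belinostat treatment, 15 rose (0.989%, background 0.563%) and 92 fell (6.07%, background 3.78%). These counts hung on single libraries: without belinostat 1 they were 82 and 189, and without DMSO 2 they were 7 and 24. A rise of a stretch and a larger number of cells with open sites in it cannot be told apart in bulk libraries, nor can fewer cells with an open site and less opening per cell at any single site.

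The stretch with most members ran from the start of chromosome 21 to near TPTE and held 305. It includes the short arm, which is rich in repeated sequence. The next 4 lay between HS6ST1 and RAB6C on chromosome 2 (289 members), between PTPRU and ENSG00000289710 on chromosome 1 (287), and on both sides of TAFA5 on chromosome 22 (275 and 259). From TBC1D22A to TAFA5 the summed level was 60.6, 134 and 141 CPM in unstimulated libraries (lowest, median and highest), 152, 208 and 234 CPM in DMSO and 137, 222 and 276 CPM in belinostat libraries. Every DMSO library was above every unstimulated one, and the log2 fold change, with its SE, was 0.81 ± 0.17 (adjusted p = 0.000495). Of its 275 members 73 opened in the cytokine contrast and 1 in the belinostat contrast. The shares opened were 12.3% and 0.668% of all gene desert peaks, and 9.51% and 0.607% of all peaks. From TAFA5 to BRD1 the log2 fold change, with its SE, was 0.80 ± 0.18 (adjusted p = 0.00066). The other 3 rose by 0.22 to 0.40 with TMM over all peaks and had values of -0.22 to -0.03 with TMM over the weaker 50% of peaks, so their direction rests on the scaling.

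Among stretches with at least 5 members, the steepest rise in the cytokine contrast was that of the desert between FAM110B and UBXN2B, chromosome 8 from 58204280 to 58311358. Its 11 members summed to 1.93, 4.48 and 6.24 CPM in unstimulated, 11.5, 13.3 and 17.3 CPM in DMSO and 9.48, 10.4 and 13.3 CPM in belinostat libraries. The log2 fold change, with its SE, was 1.66 ± 0.17 (adjusted p = 2.5e-06), and the belinostat libraries stayed above every unstimulated library. Of the 11 members 7 opened, where 12.3% of all gene desert peaks and 9.51% of all peaks did. The next were smaller in counts: ZNF519 to POTEC (1.37 ± 0.27 SE), the desert between the cadherin genes CDH7 and CDH19 (1.33 ± 0.30 SE), KIF2B to TOM1L1 (1.22 ± 0.22 SE) and TRAM1L1 to NDST3 (1.20 ± 0.20 SE), with adjusted p of 0.000193 to 0.000695. The largest fall lay between NLGN1 and NAALADL2 on chromosome 3, with 15.9, 18.3 and 27.1 CPM in unstimulated and 8.07, 10.5 and 14.3 CPM in DMSO libraries (-0.83 ± 0.16 SE, adjusted p = 0.00033). SLCO6A1 to PAM, RFX6 to VGLL2 and GOLIM4 to MECOM fell by 0.78, by 0.70 and by 0.59 on the log2 scale (adjusted p of 0.000196 to 0.000255).

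The desert between CNTN5, a neural contactin gene, and ARHGAP42 on chromosome 11 from 100358886 to 100587287 moved in opposite directions in the 2 contrasts. Its 16 members summed to 33.1, 39.4 and 43.2 CPM in unstimulated, 16.8, 26.7 and 29.3 CPM in DMSO and 28.0, 33.8 and 45.3 CPM in belinostat libraries. DMSO libraries were all below the unstimulated ones, and belinostat libraries overlapped both. The log2 fold changes were -0.64 ± 0.12 (SE, adjusted p = 0.00032) and 0.46 ± 0.13 (SE, adjusted p = 0.036), and the second was lost when any of unstimulated 2, DMSO 1, 2, 3 or 6 or belinostat 2 or 3 was left out (adjusted p 0.060 to 0.10). The ARHGAP42 site shown above lies in it, and belinostat libraries did not differ from DMSO beyond the test's threshold at that site (0.26 ± 0.33 SE, adjusted p = 0.72).

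Belinostat raised the stretches between WRN and NRG1 (2.33, 3.08 and 3.81 CPM in DMSO, then 4.68, 5.29 and 6.52 CPM), between PGR and TRPC6 (3.23, 4.78 and 5.01 CPM, then 6.79, 7.02 and 7.62 CPM), between CALB1 and TMEM64 and between MTLN and LIMS4. Their log2 fold changes were 0.87 ± 0.19, 0.66 ± 0.13, 0.62 ± 0.13 and 0.55 ± 0.13 (SE, adjusted p = 0.016, 0.0086, 0.0086 and 0.021), and none of these 4 passed with TMM over the weaker 50% of peaks. MTLN to LIMS4 was lost without DMSO 2, 3 or 6 or belinostat 5 (adjusted p 0.052 to 0.066), and WRN to NRG1 without belinostat 5 (adjusted p 0.051). The largest fall was between ZDHHC6 and TCF7L2, the gene of a Wnt effector, on chromosome 10 from 112818745 to 112850246. Its 5 members had 22.1, 23.7 and 25.2 CPM in unstimulated, 15.2, 18.2 and 20.2 CPM in DMSO and 11.0, 11.2 and 12.0 CPM in belinostat libraries. The groups did not overlap, and the log2 fold changes were -0.38 ± 0.07 and -0.67 ± 0.08 (SE, adjusted p = 0.00031 and 8.6e-05). DNAJC15 to ENOX1, KDM4C to DMAC1, TMCO5A to SPRED1 and NAMPT to CCDC71L fell by 0.58, by 0.55, by 0.52 and by 0.52 on the log2 scale. The last of these lies beside NAMPT, the gene of the rate-limiting enzyme of NAD salvage, which is induced in inflammation. It had 69.1, 79.1 and 90.7 CPM in unstimulated, 65.4, 75.8 and 83.3 CPM in DMSO and 45.2, 52.7 and 56.9 CPM in belinostat libraries (-0.52 ± 0.08 SE, adjusted p = 0.00074), with belinostat libraries below all the others.

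**Figure D5:**
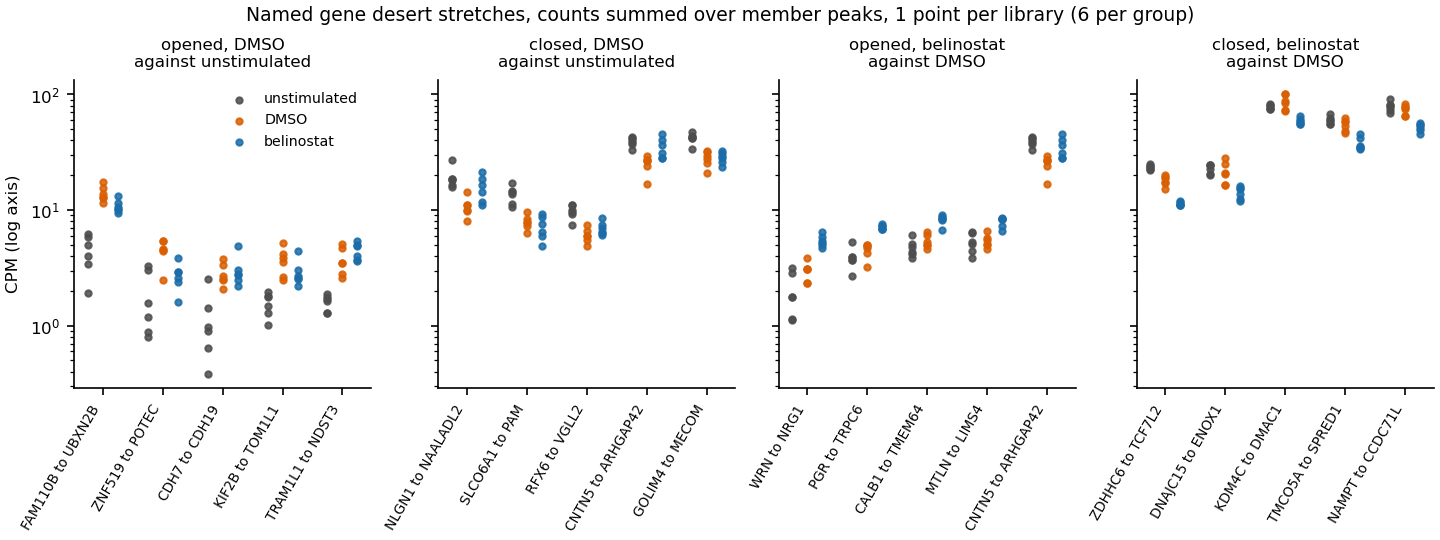
Each point is the CPM summed over the member peaks of a desert stretch in a library (log axis), for the 5 largest changes in each direction of both contrasts, labelled by the flanking coding genes. From FAM110B to UBXN2B all DMSO libraries (11.5 CPM or more) lie above all unstimulated libraries (6.24 CPM or less).

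Deserts beside genes of fibroblast biology were counted by nearest coding start, for 178 genes in 5 lists. The shares called are to be read against all peaks, of which 9.51% opened and 9.73% closed in the cytokine contrast and 0.607% and 1.75% in the belinostat contrast. Of all gene desert peaks, from which the members come, 12.3% opened and 6.18% closed in the cytokine contrast. In the belinostat contrast these shares were 0.668% and 1.63%. Beside mesenchymal transcription factor genes lay 1264 gene desert peaks, for 36 of 44 genes. In the cytokine contrast 115 opened (9.10%) and 96 closed (7.59%), both below the shares of all peaks. Against all gene desert peaks the opened share was lower and the closed share higher. The median was 0.13, also the median of all peaks, where that of gene desert peaks was 0.31. In the belinostat contrast 6 opened and 39 closed (3.08%, all peaks 1.75%). TBX3 (95), NR2F2 (91), KLF4 (87) and NR2F1 (82) had most. FOXF1, a factor of gut mesenchyme, had 10 of 58 closed in the cytokine contrast, and IRX3 had 9 of 41 opened. A site 1479 kb from ZEB2, a repressor of epithelial genes, went from 4.62, 5.41 and 5.72 CPM in unstimulated to 1.07, 2.15 and 3.35 CPM in DMSO libraries (-1.30 ± 0.19 SE, adjusted p = 3.2e-07). Beside NR2F2, a nuclear receptor of mesenchyme, a site 354 kb away had 15.1, 16.9 and 20.1 CPM, then 10.2, 13.2 and 17.2 CPM in DMSO and 5.82, 7.79 and 9.17 CPM in belinostat libraries, below all others (belinostat contrast -0.81 ± 0.14 SE, adjusted p = 1.3e-05). A site in the non-coding gene LINC00511, 271 kb from SOX9, had 4.62, 8.85 and 10.0 CPM in DMSO and 3.51, 3.95 and 4.43 CPM in belinostat libraries (-1.04 ± 0.17 SE, adjusted p = 1.8e-06).

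Beside inflammatory regulators and mediators lay 367 gene desert peaks, for 12 of 36 genes, and 141 of them were beside MYC. After the cytokine pulses 17 opened (4.63%, all peaks 9.51%) and 54 closed (14.7%, all peaks 9.73%), and in the belinostat contrast 6 opened and 16 closed (4.36%, all peaks 1.75%). These sites were stronger than most, with a median average log2 CPM of 0.63. A site 101 kb from OSMR, the gene of the receptor for the pulsed cytokine OSM, lay in the non-coding gene OSMR-DT and had 4.45, 5.90 and 7.40 CPM in unstimulated and 1.34, 2.40 and 4.37 CPM in DMSO libraries (-1.20 ± 0.18 SE, adjusted p = 5.2e-07). Belinostat libraries had 1.14, 1.94 and 2.67 CPM there (belinostat contrast -0.38 ± 0.24 SE, adjusted p = 0.42). Beside PRDM1, which encodes the repressor BLIMP1, 6 of 23 closed in the cytokine contrast. A site 111 kb from it had 12.2, 14.1 and 16.8 CPM, then 6.32, 8.92 and 10.5 CPM in DMSO libraries (-0.73 ± 0.13 SE, adjusted p = 4.0e-05). The site 139 kb from NAMPT had 34.3, 41.8 and 49.6 CPM in unstimulated, 35.4, 43.2 and 50.4 CPM in DMSO and 22.2, 23.9 and 27.3 CPM in belinostat libraries. It did not pass in the cytokine contrast (0.04 ± 0.10 SE, adjusted p = 0.82), although the loess offset gave 0.45 (adjusted p = 4.4e-08), and it fell by 0.82 with belinostat (SE 0.11, adjusted p = 1.0e-08). Adjoining sites in LINC01270, 113 to 114 kb from CEBPB (a C/EBP factor of inflammatory genes), went from 10.3, 13.3 and 16.6 CPM in DMSO to 5.33, 6.17 and 8.42 CPM in belinostat libraries at the first (-1.05 ± 0.14 SE, adjusted p = 1.8e-08), and from 8.45, 9.55 and 11.4 CPM to 4.29, 4.58 and 5.42 CPM at the second (-1.07 ± 0.15 SE, adjusted p = 9.35e-08).

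Beside stromal growth factor and receptor genes lay 665 gene desert peaks, for 30 of 39 genes. With the cytokine pulses 41 opened (6.17%, all peaks 9.51%) and 55 closed (8.27%, all peaks 9.73%, all gene desert peaks 6.18%). In the belinostat contrast 8 opened and 14 closed (2.11%, near the 1.75% of all peaks). BMP4, a ligand of the villus and upper crypt stroma, had 7 of 36 closed and 1 opened in the cytokine contrast, and FGF18 had 4 of 23 opened. The site with the smallest p lay 186 kb from RSPO2, which encodes a Wnt agonist, and went from 12.6, 15.4 and 18.2 CPM in unstimulated to 5.65, 7.33 and 10.6 CPM in DMSO libraries (-1.02 ± 0.13 SE, adjusted p = 2.8e-09), with 4.85, 6.33 and 7.40 CPM in belinostat libraries. Beside FGF9, a fibroblast growth factor gene, 2 sites on chromosome 13 are given side by side; the difference between them was not tested. The one from 21884302 to 21885215 had 4.51, 5.42 and 5.98 CPM in unstimulated, 2.42, 3.203 and 5.16 CPM in DMSO and 6.15, 6.77 and 8.22 CPM in belinostat libraries (belinostat contrast 1.05 ± 0.17 SE, adjusted p = 3.3e-06). The one from 21901880 to 21902792 had 9.36, 12.6 and 14.0 CPM, then 4.97, 6.32 and 9.62 CPM in DMSO and 5.41, 6.75 and 9.03 CPM in belinostat libraries (0.05 ± 0.16 SE, adjusted p = 0.91). A site 133 kb from TGFBR2, the type II receptor for TGFβ, fell by 0.97 with belinostat (SE 0.17, adjusted p = 1.75e-05).

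Beside matrix genes lay 578 gene desert peaks, for 16 of 27 genes, with 14 opened (2.42%, all peaks 9.51%) and 92 closed (15.9%, all peaks 9.73%) in the cytokine contrast and a median log2 fold change of -0.19. With the loess offset 3 opened and 36 closed (0.519% and 6.23%, all peaks 1.865% and 1.908%). In the belinostat contrast 5 opened and 17 closed (2.94%, all peaks 1.75%). THBS1 (thrombospondin 1) had 17 of 74 closed and 1 opened, ADAMTS5 (an aggrecanase) 12 of 70 closed, and TNC (tenascin C) 10 of 50 closed and 2 opened in the cytokine contrast. A site 463 kb from ADAMTS5 had 14.3, 15.4 and 23.4 CPM in unstimulated, 6.18, 8.53 and 11.1 CPM in DMSO and 2.77, 5.03 and 8.14 CPM in belinostat libraries, and fell in both contrasts (-0.95 ± 0.13 and -0.75 ± 0.16 SE, adjusted p = 4.9e-08 and 0.0012). A site 225 kb from FN1 (fibronectin), 133 bp from a start of LINC00607, had 15.2, 19.0 and 21.9 CPM, then 9.14, 11.9 and 14.4 CPM in DMSO and 4.15, 6.68 and 8.196 CPM in belinostat libraries. The groups did not overlap, and it fell by 0.62 and by 0.92 on the log2 scale (adjusted p = 0.00014 and 1.8e-06). A site 102 kb from HAS2 (hyaluronan synthase) did not pass in the cytokine contrast (0.02 ± 0.11 SE, adjusted p = 0.93), where the loess offset gave 0.38 (adjusted p = 0.00042), and fell by 0.69 with belinostat (SE 0.12, adjusted p = 2.6e-05).

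Beside neural adhesion and neural transcription factor genes, which fibroblasts mostly keep silent, lay 692 gene desert peaks for 31 of 32 genes, and these were weak (median average log2 CPM -0.24). In the cytokine contrast 104 opened (15.0%, all peaks 9.51%) and 23 closed (3.32%, all peaks 9.73%), with a median log2 fold change of 0.53. Of gene desert peaks in the abundance decile that holds their median level, 13.7% opened. The loess offset left 5 of the list opened and 14 closed (0.7225% and 2.02%, all peaks 1.865% and 1.908%). SOX11 had 14 of 71 opened and 1 closed, and SOX1 8 of 57 opened. The strongest calls were nonetheless falls: a site 218 kb from SOX11 had 3.35, 3.99 and 6.12 CPM in unstimulated and 0.535, 1.59 and 2.30 CPM in DMSO libraries (-1.42 ± 0.21 SE, adjusted p = 4.2e-07). A site 213 kb from CNTN5 had 7.58, 8.09 and 10.7 CPM, then 1.88, 4.83 and 6.04 CPM in DMSO and 4.72, 6.77 and 12.6 CPM in belinostat libraries (-1.005 ± 0.16 and 0.82 ± 0.17 SE, adjusted p = 3.9e-06 and 0.00088). With belinostat treatment, 5 opened and 3 closed.

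The autosomes differed in how their gene desert peaks moved. After the cytokine pulses the share opened ran from 8.10% on chromosome 6 (7.46% of all its peaks) to 23.1% on chromosome 22 (13.7% of all its peaks). The share closed ran from 0.766% on chromosome 19 (9.46% of all its peaks) to 8.10% on chromosome 6 (11.5% of all its peaks). After belinostat treatment, the share closed ran from 0.192% on chromosome 19 (0.815% of all its peaks) to 2.22% on chromosome 2 (1.95% of all its peaks). Chromosome 19 held only 522 gene desert peaks, so its closed shares rest on few calls. The shares by chromosome are those of TMM scaling, without removal of the trend with abundance. The replicate spread was wider in deserts than elsewhere, with a biological coefficient of variation of 8.70% against 7.81% in unstimulated, 13.3% against 11.3% in DMSO and 16.2% against 14.7% in belinostat libraries.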

How the data were processed

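ATAC-seq libraries of 3 groups with 6 libraries each were analysed from 1 table of raw counts per peak. Per the labels and the study's methods, the authors ran the ENCODE pipeline for ATAC-seq (build hg38), called peaks with MACS2, merged them into consensus peaks, removed blacklisted regions and deposited fragment counts made with csaw (annotation with ChIPseeker 1.34.1). Peaks were placed against GENCODE release 44, and 867 wider autosomal peaks and 1632 X chromosome peaks in deserts were left out. Members, lists and words were chosen with earlier results of these data known. Counts of all 334857 peaks were fitted with edgeR 4.0.16 (R 4.3.3; quasi-likelihood test, TMM over all peaks, 1 mean per group, prior count 2), with Benjamini-Hochberg adjustment across the whole table and calls at 0.05. The authors' filter (average log2 CPM over -3) removed 0 peaks. The authors scaled on 10 kb background bins, which needs reads outside peaks, so that scaling was approximated from binned peak counts as an alternative. SE is the log2 fold change over the root of F. The scripts were tested on simulated counts. Named sites are the 5 largest called changes in each direction at a mean level of 1 log2 CPM or more and groups that do not overlap, the 5 strongest sites per kb, and the smallest p beside each gene list; 1 named site that closed with belinostat is not reported here. Named stretches have at least 5 members. Alternatives were library totals, TMM over the weaker 50% of peaks, TMM over 10 kb bins, loess offsets (span 0.3) without and with GC content, a filter at 0, DESeq2 1.42.0, a replicate block, other distance limits and each library left out. Total counts of 4661678 to 11352032 per library limit weak sites.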

Additional observations from a re-analysis of the deposited data

Results flagged for a closer look

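Within groups of 6 libraries, 16 of 165 groups of values had 1 library further from the rest than Dixon's 95% limit allows, where chance gives about 1 in 20. At single sites, in log2 CPM, the ACTR3C site had 1.67 in DMSO 4 against 1.92 to 2.03 in the other 5, the C8orf90 site 0.76 in belinostat 1 against 1.41 to 1.80, and the PSD3 site 0.11 in unstimulated 3 against 1.10 to 1.59. The KLHL29 site had 1 such library in each group: 2.71 in unstimulated 6 (others 1.83 to 2.12), 0.58 in DMSO 1 (others 1.17 to 1.37) and -1.22 in belinostat 4 (others -0.20 to 0.23).

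Over desert stretches, in log2 CPM, DMSO 3 was low at TBC1D22A to TAFA5 (7.25, others 7.66 to 7.87), TAFA5 to BRD1 (7.36, others 7.75 to 7.95) and ZNF519 to POTEC (1.48, others 2.25 to 2.502). DMSO 1 was low at CNTN5 to ARHGAP42 (4.09, others 4.59 to 4.89) and PGR to TRPC6 (1.81, others 2.19 to 2.40). NLGN1 to NAALADL2 was high in unstimulated 6 (4.77, others 4.01 to 4.24), GOLIM4 to MECOM low in unstimulated 5 (5.09, others 5.41 to 5.58) and CALB1 to TMEM64 low in belinostat 6 (2.80, others 3.09 to 3.24). The share of gene desert peaks at a count of 0 was 16.6% in unstimulated 6 (others 1.74% to 6.34%) and 7.36% in belinostat 1 (others 0.716% to 3.04%).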

How the results depend on the processing

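The shares of gene desert peaks called in the cytokine contrast (12.3% opened, 6.18% closed) depended on the scaling and the tool: 19.7% and 2.38% with library totals, 3.19% and 18.2% with TMM over the weaker 50% of peaks, 1.68% and 2.39% with loess offsets, 2.02% and 1.325% with loess and GC offsets, and 5.72% and 3.18% with DESeq2. The filter at an average log2 CPM of 0 gave 13.7% closed. In the belinostat contrast (0.668% opened, 1.63% closed) the opened share was 1.11% with library totals, 0.133% with TMM over the weaker 50%, 0.302% with DESeq2 and 1.12% with the filter, which gave 3.88% closed. For belinostat against unstimulated (21.1% opened, 9.16% closed) the shares were 35.8% and 4.41% with library totals, 3.94% and 23.3% with TMM over the weaker 50%, 2.88% and 5.78% with loess offsets and 3.27% and 3.55% with loess and GC offsets, and 19.5% closed with the filter. For desert stretches in the cytokine contrast, library totals gave 9.30% closed, and TMM over the weaker 50% 12.7% opened and 56.1% closed. In the belinostat contrast, opened stretches were 4.16% with library totals, 0% with TMM over the weaker 50% and 2.57% with loess offsets, and 0.396% closed with TMM over the weaker 50%. The cause of these moves was not tested. The 2 other distance limits, and leaving out non-coding genes and starts, moved no share by more than 1.5 times.

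Leaving out 1 library gave 7.02% to 13.8% opened and 4.14% to 6.85% closed peaks in the cytokine contrast, 0.323% to 1.01% and 1.12% to 2.10% in the belinostat contrast, and 13.9% to 24.5% and 7.68% to 9.91% for belinostat against unstimulated. For stretches it gave 32.2% to 36.6% opened and 25.8% to 32.3% closed, and in the belinostat contrast 0.462% to 5.41% and 1.58% to 12.5%. The replicate block moved no count by more than 1.5 times, ended no call of a named site or stretch, and left the cytokine shares at 12.4% and 6.41%, the belinostat shares at 0.598% and 1.68%, and stretches at 36.1% opened. Same-numbered libraries correlated at -0.118 to 0.092 in their deviations over gene desert peaks, and 4 of 18 correlated best with their own number. At a median of 2 to 7 counts per site, this cannot decide whether equal numbers mark a shared culture or batch. The labels do not say.

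Directions turned at the strongest sites. With loess offsets the cytokine values became 0.13 (NFE2L3), 0.11 (MTRR), 0.15 (TNS1), 0.078 (SPTLC3) and 0.10 (TSPYL5), and those of belinostat against unstimulated 0.17 (NFE2L3), 0.0017 (MTRR), 0.088 (TNS1) and 0.028 (TSPYL5). With loess and GC offsets they became 0.15 (TNS1), 0.16 (SPTLC3) and 0.16 (TSPYL5), and 0.022 (NFE2L3), 0.10 (TNS1), 0.057 (SPTLC3) and 0.10 (TSPYL5), and the KLF5 site had 0.12 in the cytokine contrast. With TMM over the weaker 50% the stretches from the start of chromosome 21 to TPTE, from HS6ST1 to RAB6C and from PTPRU to ENSG00000289710 had -0.22, -0.054 and -0.031. Over all settings 2863 values of named sites kept their direction and their side of the threshold, 108 lost the call and 17 turned. A median of 2 to 7 counts per gene desert peak and library limits what single weak sites can show.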
